A study of Mus musculus with 90 samples.

Results

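Hox genes encode homeodomain transcription factors that give cells their position along the body axis and the limb. A total of 54 Affymetrix probe sets, of 36899 on the 3 chips, carried a single gene symbol made of Hoxa, Hoxb, Hoxc or Hoxd and a number from 1 to 13. They measured 33 genes, of 15964 with a single symbol, with 38 probe sets on MG_U74Av2, 8 on MG_U74Bv2 and 8 on MG_U74Cv2. The rule picks them by symbol and uses no measured value, but it was set with earlier results of these data known. The RNA came from primary skeletal myoblasts of MyoD-/- mice, which lack the myogenic factor MyoD, and all groups shared that genotype. Ham's F10 with serum and basic FGF was the growth medium, and a switch to DMEM with horse serum leads myoblasts to stop dividing and form myotubes. Each of 3 cultures, named 1999, P6 and P10, gave 1 array per chip at 0h and then at 6h, at 12h, at 18h, at 24h, at 36h, at 48h, at 3d, at 4d and at 7d, which makes 30 arrays per chip. The meaning of the culture names, the number of animals behind each culture and their age and strain were not given in the sources used here, and no wild-type culture was analysed. P-values therefore describe the spread between these samples.

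The 39 mouse Hox genes sit in 4 clusters, and the order of genes along a cluster follows the order of the body levels at which they are switched on. Genes with the same number in different clusters, the paralogue groups, are the most alike in sequence: low numbers act in the hindbrain and neck, middle numbers in the trunk, and high numbers in the tail and the distal limb. In adult tissues, connective tissue and muscle cells among them, part of this pattern is retained as a record of where the cells came from, held in place by Polycomb and Trithorax chromatin proteins. Hoxa11 is known for the forearm and lower leg, and Hoxa2 and Hoxa3 for the hindbrain and pharyngeal arches.

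RefSeq promoter windows, 250 bases before to 50 after the gene start, were at hand for 20 of the 33 genes. The 4 shown are those of Hoxa3 and Hoxa11, the genes whose signal differed most between cultures, and of Hoxa2 and Hoxa5, which lie on either side of Hoxa3 and Hoxa4 in the gene order. The Hoxa3 window itself lies between those of Hoxa5 and Hoxa11 on the chromosome. All are from GRCm38.p6, written 5′ to 3′. Capitals mark TGATTNAT (the composite site of a Hox protein with a Pbx partner), AGGTCA (the half-site of retinoic acid and other nuclear receptors), TATAAA and CCAAT, searched on both strands, and no match overlapped another.
Hoxa2, chr6:52164782-52165081, minus strand: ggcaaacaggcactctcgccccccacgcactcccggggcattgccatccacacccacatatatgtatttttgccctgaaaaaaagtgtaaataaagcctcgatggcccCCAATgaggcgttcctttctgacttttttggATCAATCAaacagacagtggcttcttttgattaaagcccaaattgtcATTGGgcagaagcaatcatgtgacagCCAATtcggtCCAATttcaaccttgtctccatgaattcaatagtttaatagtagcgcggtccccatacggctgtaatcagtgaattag
Hoxa3, chr6:52213018-52213317, minus strand: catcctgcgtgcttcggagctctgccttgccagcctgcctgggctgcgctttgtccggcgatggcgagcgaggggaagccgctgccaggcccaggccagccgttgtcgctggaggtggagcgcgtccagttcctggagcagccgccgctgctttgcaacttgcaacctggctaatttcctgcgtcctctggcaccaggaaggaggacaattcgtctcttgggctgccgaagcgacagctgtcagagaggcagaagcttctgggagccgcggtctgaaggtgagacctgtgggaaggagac
Hoxa5, chr6:52204538-52204837, minus strand: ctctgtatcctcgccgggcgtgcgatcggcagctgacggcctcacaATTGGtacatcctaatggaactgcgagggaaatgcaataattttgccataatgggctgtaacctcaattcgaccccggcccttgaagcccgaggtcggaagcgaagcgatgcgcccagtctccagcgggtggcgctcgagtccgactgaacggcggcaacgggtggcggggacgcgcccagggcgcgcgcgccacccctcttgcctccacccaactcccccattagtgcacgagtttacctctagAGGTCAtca
Hoxa11, chr6:52245761-52246060, minus strand: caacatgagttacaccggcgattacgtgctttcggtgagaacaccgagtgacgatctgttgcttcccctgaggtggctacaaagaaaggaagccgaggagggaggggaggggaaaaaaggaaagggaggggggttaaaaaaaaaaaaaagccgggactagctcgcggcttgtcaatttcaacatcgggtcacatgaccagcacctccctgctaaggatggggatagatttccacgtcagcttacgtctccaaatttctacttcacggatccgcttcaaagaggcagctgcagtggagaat
The Hoxa2 window held 1 TGATTNAT match and 4 CCAAT matches, and the Hoxa5 window held 1 AGGTCA and 1 CCAAT match. The Hoxa3 and Hoxa11 windows held none of these letters. Among 32851 mouse windows of the same length, 3.22% held TGATTNAT, 16.3% AGGTCA, 13.6% TATAAA and 37.4% CCAAT.

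Signal tiers describe which Hox genes were measured above the middle of a chip. A probe set was called bright when its signal exceeded the chip median in all 30 arrays, intermittent when it did so in 3 to 29, and dim below that; dim sets were not tested. The chip medians were 527, 800 and 613 units of linear MAS5 signal on MG_U74Av2, MG_U74Bv2 and MG_U74Cv2. Of the 54 probe sets, 7 were bright, 21 intermittent and 26 dim, and 28 sets for 20 genes were tested. Detection calls were not used here, so a dim probe set is not shown to be silent.

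Bright sets were found in the anterior and middle paralogue groups and up to group 10. Hoxa4 had a signal from 2437 to 6995 over the 30 arrays, with a median of 4136. Hoxb2 ranged from 1384 to 3222 and the bright Hoxb4 set from 1101 to 2805. Hoxb8 ranged from 968 to 2707. These 4 genes belong to groups known for the hindbrain, neck and upper trunk. Hoxc9 had 2 bright sets, that of MG_U74Av2 from 580 to 1557 and that of MG_U74Cv2 from 1751 to 8055. Hoxc10, a gene of the lumbar level and the hind limb, ranged from 2865 to 8363. Where a gene had tested sets on several chips, they are told apart here by the chip. These ranges are of separate probe sets and do not rank the genes, because each probe set has its own brightness.

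The remaining genes fell into 14 with intermittent sets at best and 13 with dim sets only. The intermittent genes were Hoxa2, Hoxa3, Hoxa5, Hoxa6, Hoxa9, Hoxa11, Hoxb1, Hoxb6, Hoxb7, Hoxb13, Hoxc4, Hoxc5, Hoxc8 and Hoxd8. Dim sets alone were seen for Hoxa7, Hoxa10, Hoxa13, Hoxb3, Hoxb5, Hoxb9, Hoxc6, Hoxd1, Hoxd9, Hoxd10, Hoxd11, Hoxd12 and Hoxd13. The median signal of the 26 dim sets ran from 13.0 to 394, and their highest single value was 916, on a Hoxc5 set. Dim sets made up 7 of 17 in Hoxa, 6 of 15 in Hoxb, 3 of 10 in Hoxc and 10 of 12 in Hoxd, counts that do not rank the clusters for the same reason.

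**Figure D1:**
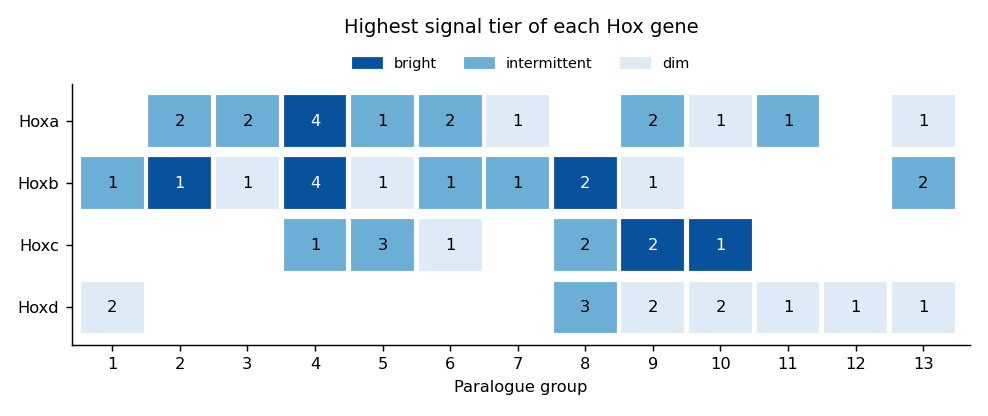
Highest signal tier of each Hox gene by cluster (rows) and paralogue group (columns), with the number of its probe sets in the cell. Dark cells are the 6 genes with a bright set, and 6 of the 7 measured Hoxd genes have dim sets only.

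Probe sets of the same gene did not always share a tier. Of 15 genes with several sets, 7 had sets in different tiers, and Hoxa4, Hoxb4 and Hoxb8 each had both a bright and a dim set. The 3 other Hoxa4 sets had medians of 169, 121 and 13.4, and the other Hoxb8 set never passed 113. Of the 7 bright sets, 4 carry a suffix (_r_at or _f_at) that marks probes shared with other transcripts or chosen under relaxed rules, among them those of Hoxa4 and Hoxb8. The Hoxa4 and Hoxb8 levels therefore rest on a marked probe set each. Both Hoxc9 sets are marked too, with _f_at on MG_U74Av2 and _r_at on MG_U74Cv2, so every Hoxc9 value here comes from a marked set.

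The first comparison asked whether Hox signals changed over the time course. None of the 28 tested sets changed over the 10 times in limma's joint test at a Benjamini-Hochberg adjusted p under 0.05, against 3.27% of all 24307 tested probe sets. An unadjusted p under 0.05 was seen for 1 Hox set, of Hoxa6, and for 2993 of all sets. Late arrays (3d, 4d and 7d) were then set against early ones (0h, 6h and 12h). Again 0 of 28 sets were called, against 11.1% of all, and 0 had an unadjusted p under 0.05, where 5898 of all sets did. These fits left culture out. The median residual SD (log2) of Hox sets was 0.51 with time alone and 0.32 with culture added, against 0.43 and 0.38 over all sets. Few calls with time alone therefore do not show stability. With culture as a replicate block, 3 Hox sets had an unadjusted p under 0.05 in the joint test (4809 of all) and 3 in late against early (7039 of all). Between the early and late arrays the proliferation genes went down: all 6 of a list of dividing-cell genes fell, among them Mki67 with a mean of 32.7 ± 45.0 late and 1208 ± 856 early (SD, n = 9 each, from 3 cultures at 3 times; limma adjusted p = 2.6e-12, time alone). The labels give 6h and 12h the same RNA concentration within each culture, and whether these were separate extracts is not given in the sources used here. Of 8 myotube genes 6 rose, among them Actc1, cardiac actin of young myotubes, by 2.56 on the log2 scale (adjusted p = 0.0090). The cultures did not share this rise equally. The summed signal of the 8 genes had a median of 12259 early and 326345 late in P6, and of 119920 and 500842 in P10. In 1999 it was 14570 early and 22501 late, with late values from 14699 to 152630.

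Late minus early differences of the 28 sets, in log2 of signal plus the chip's 25th percentile, ran from -0.47 for the Hoxa3 set of MG_U74Av2 to 0.50 for the Hoxc8 set of MG_U74Cv2. The added value shrinks differences of dim sets. The median absolute difference was 0.10 for Hox sets and 0.22 over all tested sets. A difference was placed within 1 log2 unit of 0 by its 95% interval for 23 of 28 sets, which is 82.1%, against 82.2% of all tested sets, so the intervals were no tighter than those of other genes. With culture as a replicate block the count was 27 of 28, or 96.4%, against 85.1% of all.

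**Figure D2:**
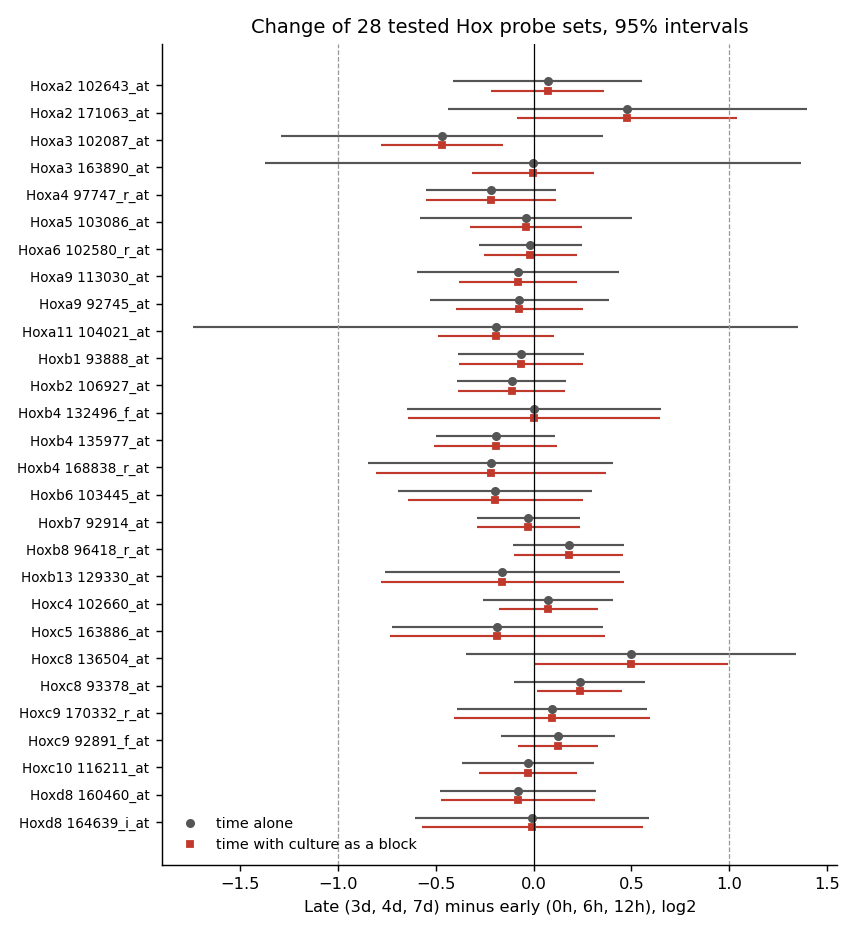
Late minus early log2 difference of each tested Hox probe set (points) with its 95% interval (lines), from time alone (grey circles) and with culture as a block (red squares); dashed lines lie 1 log2 unit from 0. All points lie between -0.47 and 0.50, and the block narrows the intervals most for Hoxa3 and Hoxa11.

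The bright sets give the size of these differences, averaged over the cultures. Hoxb2, which patterns the hindbrain, averaged 2110 ± 538 late and 2281 ± 451 early, a difference of -0.11 ± 0.14 (SE; adjusted p = 0.69 in limma). Hoxb4, known for the neck and for blood stem cells, averaged 1554 ± 477 late and 1762 ± 265 early (-0.19 ± 0.15). Hoxa4 averaged 3973 ± 861 late and 4726 ± 1333 early (-0.22 ± 0.16). The late and early ranges of these sets overlapped. Hoxc10 averaged 4611 ± 1148 late and 4813 ± 1660 early (-0.03 ± 0.16), and Hoxb8 1535 ± 525 late and 1295 ± 189 early (0.18 ± 0.14). The Hoxc9 sets differed by 0.13 ± 0.14 on MG_U74Av2 and by 0.09 ± 0.24 on MG_U74Cv2. None of these 7 differences passed the test. The averages join cultures that moved in different directions. Hoxa4 went from a mean of 5837 early to 3359 late in 1999, from 4538 to 3852 in P10 and from 3803 to 4709 in P6. Hoxb8 went from 1284 to 1072.5 in 1999, from 1285 to 1555 in P10 and from 1316 to 1977 in P6.

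Single times gave little more. Of 252 comparisons of a Hox set at a later time with 0h, 1 passed. Of all sets 0.169% passed at 6h, 1.23% at 12h, 4.57% at 18h, 4.22% at 24h, 4.1% at 36h, 5.83% at 48h, 4.76% at 3d, 5.58% at 4d and 8.61% at 7d. The comparison that passed was Hoxa6 at 18h, with 1005 in P6, 1426 in P10 and 1246 in 1999, against 855, 407 and 773 at 0h in the same cultures (0.79 ± 0.22, adjusted p = 0.037). Hoxa6 acts at the neck and upper trunk. At 7d the same set gave 622 in P6, 703 in P10 and 742 in 1999, which overlaps the 0h values.

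With the 3 cultures as a replicate block, 9 of these comparisons passed. Of all sets 1.1% then passed at 6h, 3.49% at 12h, 8.73% at 18h, 8.3% at 24h, 7.87% at 36h, 11.1% at 48h, 9.97% at 3d, 11% at 4d and 14.9% at 7d. Hoxc8, a gene of the thorax and forelimb level, accounted on MG_U74Av2 for 5 of them, at 18h, 36h, 48h, 4d and 7d, by 0.56 to 0.73. At 4d this set measured 477 in P6, 523 in P10 and 971 in 1999, and at 0h 404, 249 and 357 in the same cultures. All 5 comparisons share these 0h arrays, and late minus early was not called for this set (adjusted p = 0.13 with the block). The Hoxc8 set of MG_U74Cv2 passed at none of these times, with 0.15, 0.11, 0.25, 0.63 and 0.28 in that order. Hoxc10 passed at 6h (0.87, adjusted p = 0.040) and 48h (0.71, adjusted p = 0.029), the Hoxc9 set of MG_U74Av2 at 12h (0.64, adjusted p = 0.041) and Hoxa6 at 18h. The Hoxc9 set of MG_U74Cv2 gave -0.10 at 12h and did not pass. The block also brought 1 late minus early call, the Hoxa3 set of MG_U74Av2 (-0.47 ± 0.15, adjusted p = 0.032), against 17.8% of all sets. Its mean was 137 late and 355 early in P10 and 855 late and 1290 early in 1999. In P6 it was 377 late and 373 early.

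Whether the change differed between cultures was tested on the 18 early and late arrays. It was called for 0 of the 28 sets, against 2.36% of all. An unadjusted p under 0.05 was seen for 5 Hox sets and for 5099 of all 24307. The 5 were Hoxa4, Hoxb6, Hoxb8, the Hoxa3 set of MG_U74Av2 and the Hoxa9 set of MG_U74Bv2.

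**Figure D3:**
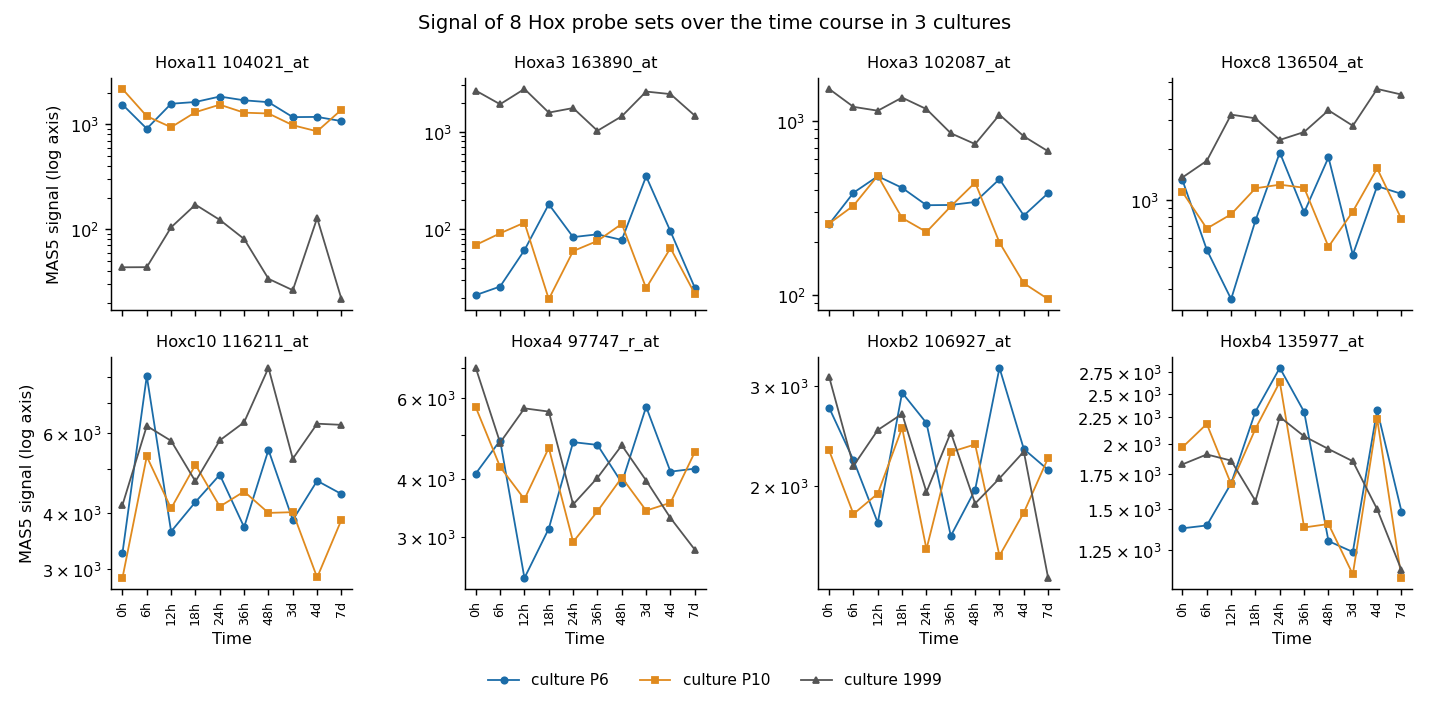
MAS5 signal (log axis, a scale of its own in each panel) of 8 Hox probe sets at the 10 times in cultures P6 (circles), P10 (squares) and 1999 (triangles); the Hoxa3 panels show the MG_U74Bv2 set left of the MG_U74Av2 set. Lines of Hoxa11 and of both Hoxa3 sets from P6 and P10 never cross those of 1999, and those of Hoxa4, Hoxb2 and Hoxb4 cross repeatedly.

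The second comparison was between the cultures. With time as a covariate, 13 of 28 sets for 9 genes differed between the 3 cultures, that is 46.4%, against 24% of all tested sets. With no filter on dim sets, 14 of 54 differed, and 15.9% of all. Hoxa sets made up 8 of the calls (of 10 tested) and Hoxc sets 5 (of 7), with 0 of 9 in Hoxb and 0 of 2 in Hoxd. Of the 13, 12 were lower in P6 and P10 than in 1999 and 1, Hoxa11, was higher. Arrays of 1 culture at 10 times are not separate cultures, so these p-values describe these 3 cultures only.

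P6 and P10 were both set against 1999. P6 differed from 1999 at 12 sets, 1 higher and 11 lower. Of all sets 9.89% differed, 4.2% higher and 5.69% lower. P10 differed from 1999 at 13 sets, 1 higher and 12 lower, where 24.3% of all sets differed, 10.7% higher and 13.6% lower. No Hox set was called between P10 and P6 (8.31% of all), with differences from -0.51 for the _r_at set of Hoxb4 to 0.38 for its _f_at set.

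**Figure D4:**
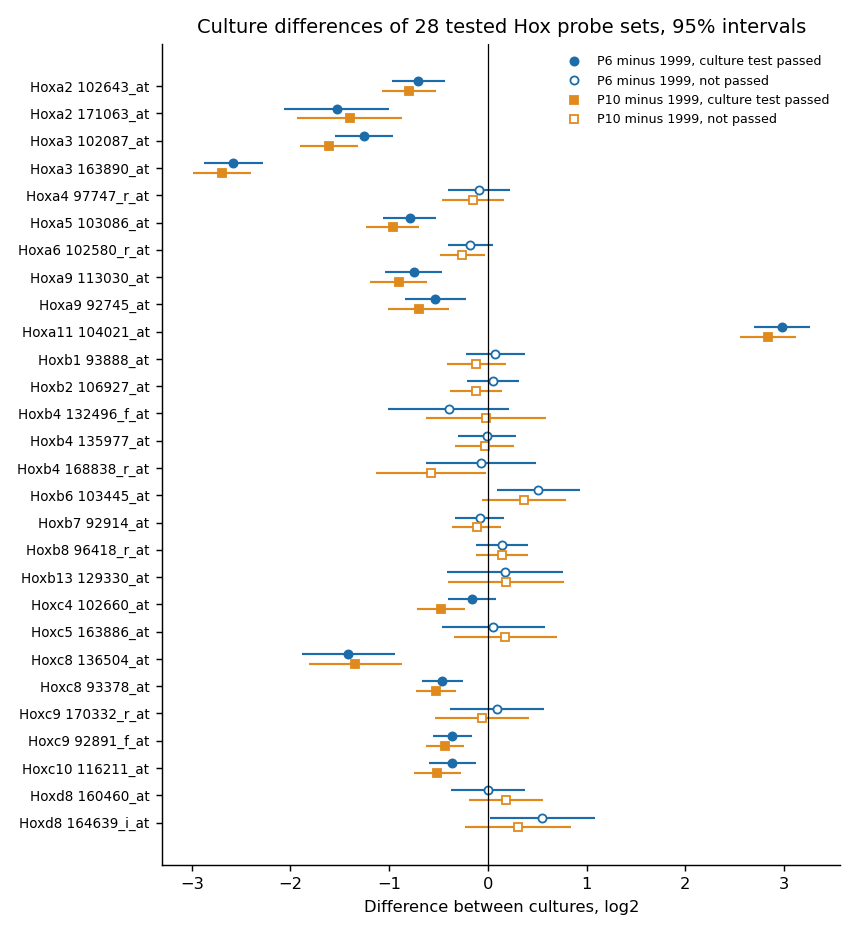
Difference of P6 (circles) and P10 (squares) from 1999 for each tested Hox probe set, in log2, with 95% intervals; filled points passed the test over the 3 cultures. Hoxa11 lies near 3, both Hoxa3 sets and most other Hoxa sets lie below 0, and no Hoxb or Hoxd set passed the test.

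Hoxa11, a determinant of the forearm and lower leg, was higher in P6 and P10 than in 1999. Its signal was 907 to 1836 in P6 (median 1554, 10 arrays), 856 to 2169 in P10 (median 1277) and 21.6 to 171 in 1999 (median 62.1). All 20 arrays of P6 and P10 lay above all 10 of 1999. The difference was 2.98 ± 0.14 for P6 minus 1999 (SE, limma adjusted p = 3.9e-13) and 2.84 ± 0.14 for P10 minus 1999 (adjusted p = 7.6e-13). No 1999 array exceeded the chip median, and the size of the difference depends on the value added before log2: it was 4.46 and 4.31 with 1 added, and 1.67 and 1.57 with the chip median added. It was there at the start, with 1541 in P6, 2169 in P10 and 43.4 in 1999 at 0h, and at the end, with 1071, 1376 and 21.6 in that order of cultures at 7d. Over the course itself Hoxa11 gave a late minus early value of -0.19, whose 95% interval ran from -1.74 to 1.35 with time alone and from -0.49 to 0.10 with culture as a replicate block.

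Probe sets named for the antisense transcript Hoxa11os, which overlaps Hoxa11 and is not a member of the family, were looked at after these values were seen. Of the 3, 2 were higher in P6 and P10 than in 1999, as Hoxa11 was. On the _s_at set the medians were 897 in P6, 423 in P10 and 51.4 in 1999 (differences from 1999 of 2.31 and 1.70), and on the _f_at set 454, 469 and 194 (0.99 and 0.98). The third, an _r_at set on MG_U74Cv2, was not called between cultures, and its differences from 1999 were below 0 (-0.17 and -0.29). Its medians were far higher, at 22021 in P6, 21015 in P10 and 26166 in 1999. The sources used here do not give the strand that each of these probe sets reads, so sense and antisense transcripts cannot be told apart.

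Hoxa3, which shapes the pharyngeal arches and the neck, showed the reverse on both of its sets. On MG_U74Bv2 the signal was 21.2 to 350 in P6 (median 80.7), 19.2 to 117 in P10 (median 66.7) and 1028 to 2761 in 1999 (median 1841). On MG_U74Av2 it was 254 to 480 in P6 (median 362), 94.1 to 483 in P10 (median 266) and 667 to 1525 in 1999 (median 1113). No array of P6 or P10 reached the lowest 1999 array on either set. The differences from 1999 were -2.58 ± 0.14 for P6 and -2.69 ± 0.14 for P10 on MG_U74Bv2, and -1.25 ± 0.14 and -1.61 ± 0.14 on MG_U74Av2. On MG_U74Bv2 no P6 or P10 array exceeded the chip median, and the differences were -4.71 and -5.06 with 1 added before log2, and -1.59 and -1.64 with the chip median added. Hoxa11 and the 2 Hoxa3 sets were the Hox sets whose P6 and P10 arrays all lay on one side of the 1999 arrays, which holds for 0.44% of all tested sets.

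Hoxa2, Hoxa5 and Hoxa9 were also lower in P6 and P10 than in 1999. Hoxa2, needed for the second pharyngeal arch, had medians of 485 in P6, 404 in P10 and 858 in 1999 on MG_U74Av2 (-0.70 and -0.80 against 1999), and 184, 147 and 1164 on MG_U74Cv2 (-1.53 and -1.40). Hoxa5, a gene of the neck and lung, had medians of 337, 278 and 717 in the same cultures (-0.79 and -0.96). Their ranges overlapped those of 1999. Hoxa9, a posterior trunk gene also known from leukaemia, had medians of 1303, 1094 and 2381 in P6, P10 and 1999 on MG_U74Bv2 (-0.75 and -0.90) and 622, 541 and 942 on MG_U74Av2 (-0.53 and -0.70). Hoxa4 and Hoxa6, which lie between these genes, were not called, and their tested sets carry the _r_at mark. With no filter on dim sets, the dim _f_at set of Hoxa6 was called, with medians of 35.6 in P6, 51.7 in P10 and 106 in 1999. In cluster order the called Hoxa genes were thus Hoxa2, Hoxa3, Hoxa5 and Hoxa9 on the lower side and Hoxa11, the next but one after Hoxa9, on the higher side; Hoxa10 between them had a dim set only.

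**Figure D5:**
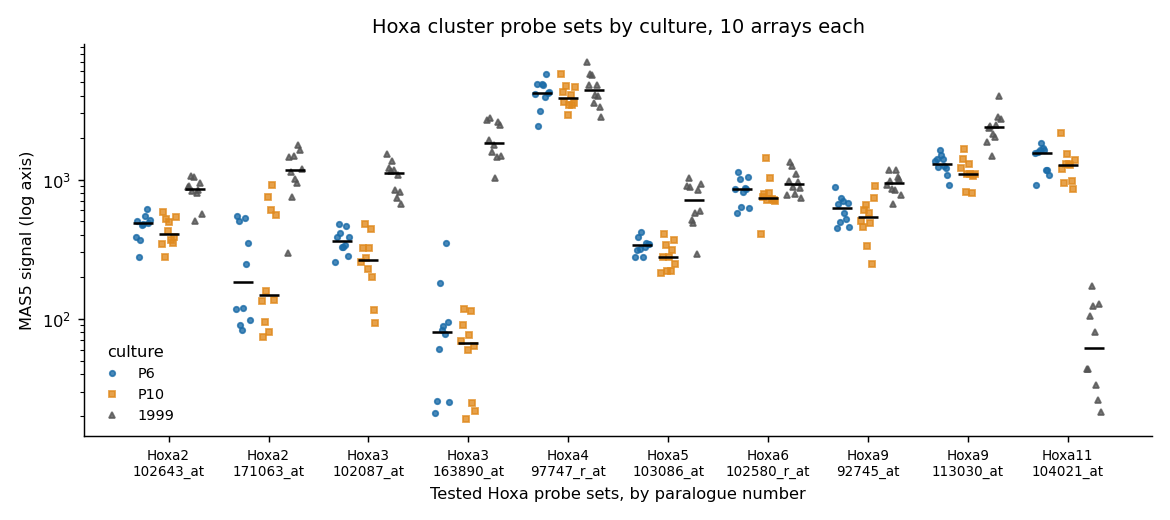
MAS5 signal (log axis) of the 10 tested Hoxa probe sets in the 10 arrays of P6 (circles), P10 (squares) and 1999 (triangles), with bars at the median of each culture. The sets of Hoxa2, Hoxa3, Hoxa5 and Hoxa9 have higher medians in 1999, and Hoxa11 has medians of 1554 in P6 and 1277 in P10, and of 62.1 in 1999.

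In the Hoxc cluster the same direction held at 4 genes. Hoxc8 had medians of 969 in P6, 989 in P10 and 2912 in 1999 on MG_U74Cv2 (-1.42 ± 0.23 and -1.34 ± 0.23), and 472, 463 and 718 on MG_U74Av2 (-0.46 and -0.52). Hoxc10 had medians of 4309, 4047 and 6000 in these cultures (-0.36 and -0.51), and the Hoxc9 set of MG_U74Av2 of 929, 905 and 1308 (-0.36 and -0.43). The ranges of all these sets overlapped between cultures. Hoxc4, a neck-level gene, had medians of 436, 309 and 448 and differed in P10 (-0.48, adjusted p = 0.0038) and not in P6 (-0.16, adjusted p = 0.47). The MG_U74Cv2 set of Hoxc9 was not called (0.09 and -0.06).

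Some of these sets were tested because of the culture in which they were high. Both Hoxa3 sets, Hoxa5 and Hoxc4 exceeded the chip median only in 1999 arrays, and Hoxa11 only in P6 and P10 arrays. The Hoxa2 set of MG_U74Cv2 exceeded it in 9 arrays of 1999, 0 of P6 and 2 of P10, so it too passed only through 1999. For all these sets, passing the filter and differing between cultures are not separate facts.

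Scan sessions, read from the instrument records, fell mostly within cultures: of 15 recorded sessions 12 held arrays of a single culture. A further 6 arrays of MG_U74Cv2 had no scan date and were treated as a single session in fits with session as a block. Block results of MG_U74Cv2 sets therefore rest partly on that choice. With the session as a random block, 9 of the 28 sets differed between cultures, against 9.39% of all sets, and the calls of the Hoxa9 set of MG_U74Av2, Hoxc4, the Hoxc9 set of MG_U74Av2 and Hoxc10 were lost (adjusted p = 0.13, 0.24, 0.059 and 0.090). Their differences from 1999 were then -0.57 in P6 and -0.62 in P10 for Hoxa9, -0.16 and -0.43 for Hoxc4, -0.40 and -0.45 for Hoxc9, and -0.38 and -0.54 for Hoxc10. P10 alone still differed from 1999 for Hoxc9 (adjusted p = 0.029) and Hoxc10 (adjusted p = 0.036). Hoxa11 stayed at 2.92 ± 0.19 in P6 and 2.91 ± 0.19 in P10 relative to 1999. A session of MG_U74Cv2 held 3 arrays of P6, 1 of P10 and 8 of 1999. Within it the Hoxc8 set of MG_U74Cv2 was 476 to 1213 in P6, 772 in P10 and 1365 to 3413 in 1999, with no overlap, and the Hoxa2 set of MG_U74Cv2 was 98.6 to 352, 559 and 298 to 1777 in the same cultures, with overlap. The P6 arrays were of 3d to 7d, the P10 array of 7d and the 1999 arrays of 0h to 3d. Outside 3d, P6 and P10 cannot be compared with 1999 at the same time there. At 3d, with 1 array each, the Hoxc8 set was 476 in P6 and 2764 in 1999. The Hoxa2 set was 248 in P6 and 1777 in 1999 at that time. For the remaining sets culture and session cannot be told apart from single sessions. Using the 9 early arrays alone, 4 of 28 sets differed (0.786% of all), namely both Hoxa3 sets, Hoxa5 and Hoxa11. Using the 9 late arrays alone, 10 differed (12.2% of all), those 4 among them. The 10 included Hoxb6, a Hoxb set that was not called over all arrays.

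The cultures also differed in cell type markers and in how far they differentiated. Myotube genes summed to 6731 to 339000 in P6 (8 genes, median 69253), 16348 to 508255 in P10 (median 378170) and 14048 to 152630 in 1999 (median 18115), and 7 of 8 differed between cultures. Fibroblast markers summed to 35073 to 65866 in P6 (9 genes), 36737 to 82340 in P10 and 107165 to 145259 in 1999, and 6 of 7 tested differed. Their directions were mixed: Col1a2 and Fbln2 were lower in both P6 and P10 than in 1999, Col1a1 was lower in P6 (-1.12) and not called in P10 (0.17, adjusted p = 0.67), and Tcf7l2 was lower in P10 (-0.70). Col3a1 (0.64 and 0.79) and Dcn (0.68 and 0.65) were higher in P6 and P10. Much of that sum was Col1a2, a collagen chain, singled out after its values were seen: its signal was 64.6 to 174 in P6, 52.3 to 617 in P10 and 42356 to 66049 in 1999. Myoblast markers were tested for 9 of 10 genes, and 5 differed between cultures. No marker was at 0 in any array, and endothelial, blood and adipocyte markers were tested for 1 of 7, 2 of 7 and 0 of 5 genes. Their part in the Hox differences was not tested. In bulk RNA, fewer cells of a type and less RNA per cell cannot be told apart. The Myod1 probe set read 2598 to 6889 in P6, 3601 to 4940 in P10 and 3002 to 3665 in 1999, and because the sources used here do not place it inside or outside the deleted part, it checks nothing about the genotype.

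Genes that act on or with Hox genes were counted in the same tests. Polycomb and Trithorax genes, which keep Hox genes off or on, had 24 tested members, of which 1 rose and 3 fell between early and late, where 11.1% of all tested sets changed. The median difference was -0.11, against -0.04 over all tested sets. With culture as a replicate block 2 rose and 4 fell, where 17.8% of all changed. Ezh2, the methyltransferase of Polycomb complex PRC2, averaged 654 ± 108 late and 2126 ± 967 early (-1.44 ± 0.12, adjusted p = 1.1e-08). Phc2, of complex PRC1, fell by 0.83 on the log2 scale (adjusted p = 0.00029), and its relative Phc3 rose by 0.67 (adjusted p = 0.028). Rbbp7, a histone-binding partner in several complexes, was the other gene that fell (-0.54, adjusted p = 0.036). Of the 24, 9 differed between cultures, against 24% of all. None of the 7 tested TALE cofactors, the Pbx, Meis and related homeodomain proteins that bind DNA with Hox proteins, changed between early and late, and 2 differed between cultures, against 24% of all. With culture as a replicate block 2 of the 7 rose, where 17.8% of all sets changed in either direction.

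Regulators upstream of Hox clusters and related homeobox genes were mostly dim, with 4 of 16 tested. Gdf11, a secreted factor that sets the trunk-to-tail transition, averaged 2938 ± 2194 late and 698 ± 543 early (1.57 ± 0.46, adjusted p = 0.026). Rarg, a retinoic acid receptor, averaged 821 ± 571 late and 1462 ± 366 early (-0.96 ± 0.28, adjusted p = 0.024). The 3 Cdx genes, direct activators of Hox clusters in the embryo, were dim.

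Other positional and limb transcription factors had 15 tested members, of which 1 rose and 1 fell, where 11.1% of all sets changed, and 7 differed between cultures, where 24% of all did. Tbx15, a T-box factor of limb and muscle, rose by 1.93 ± 0.37 (adjusted p = 0.0011), and Twist2, a repressor of differentiation, fell by 1.41 on the log2 scale (adjusted p = 0.00060). En1 and Shox2, among the 7, were singled out after their values were seen. En1, a marker of the ventral limb and of dorsal somite cells, was 789 to 2263 in P6, 928 to 2165 in P10 and 112 to 507 in 1999, with no overlap (1.85 and 1.72 against 1999). Shox2, a factor of the upper limb segment, was 2794 to 5827 in P6, 1448 to 2689 in P10 and 1159 to 2389 in 1999, so that P6 stood alone (1.01, adjusted p = 6.9e-07) and P10 overlapped 1999 (0.07, adjusted p = 0.73).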

How the data were processed

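RNA hybridised to 90 arrays, 30 on each of MG_U74Av2, MG_U74Bv2 and MG_U74Cv2, was analysed. The authors deposited linear signal intensity, summarised with MAS5 per the submitters' processing notes; the version and the scaling target are not given in the sources used here. Mean signal per array was 2174 to 2532, 1946 to 2142 and 2442 to 3009 on these chips, and the number of arrays limits precision. Each chip's 66 control sets were not tested. Probe sets with at least 3 of 30 arrays above the chip median were tested, 24307 in all. The chip's 25th percentile was added before taking log2 (120, 270 and 213), and values were fitted with limma 3.58.1 in R 4.3.3, with Benjamini-Hochberg adjustment over the 3 chips together and a threshold of 0.05. Time tests used time alone, with culture as a replicate block as an alternative; culture tests had time as a covariate. Titles name the same cultures at each time, so cultures pair the arrays. Deviations from the mean of each time were correlated between arrays of different times. Within a culture the median was 0.44, 0.23 and 0.09 on the chips, with lowest values under 0. Between cultures it was -0.20, -0.08 and -0.04, but subtracting the mean of the 3 cultures pushes these values below 0 by construction. Sessions fell mostly within cultures, so these correlations do not separate culture from session. The fits were also run on simulated data with independent noise, no session effect, and culture differences only in sets chosen to have them. Real arrays of a culture are less independent, so that run checked the calculation and not the error rates here. Hox genes were named from the platform annotation. A list gene was given by 1 probe set, preferably on MG_U74Av2 and without a suffix mark. All bright Hox sets and those passing a test are named, with at most 3 genes per list that passed a time test. The members, lists and tests were chosen with earlier results of these data known. Other values added before log2, other filters, quantile normalization, scan session as a block and leaving out cultures or arrays were tried.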

Additional observations from a re-analysis of the deposited data

How the results depend on the processing

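The joint time test and the test of culture by phase called 0 Hox sets under every alternative run. Late against early called 1 set with no filter, a dim Hoxd11 set, and 1 with culture as a replicate block, the Hoxa3 set of MG_U74Av2; leaving out each culture gave 0. Times against 0h called 8 with no filter, 0 when all 30 arrays had to exceed the median (7 sets left), 9 with the replicate block, 6 when scan session was the block, 0 with only the 6 arrays of both times, and 0 to 1 leaving out each culture: the Hoxa6 call at 18h was lost without P6 and without P10. The culture test called 2 of 7 sets when all arrays had to exceed the median, and 4 with only the early arrays, an alternative chosen after seeing the data. Its other alternatives gave 9 to 14, and leaving out the 1999 arrays of 4d and 7d, also chosen after seeing the data, gave 13. All 212 alternative values of the called sets' culture differences kept their sign, and 37 of them lost significance. Several changed in size by over 1.5 times with the value added before log2, those of Hoxa11 and of the Hoxa3 set of MG_U74Bv2 among them. Over all alternatives the Hoxa2 set of MG_U74Cv2 ran from -2.36 to -0.89 for P6 minus 1999 and from -2.20 to -0.90 for P10 minus 1999. Hoxa5 ran from -1.24 to -0.48 and from -1.36 to -0.57.

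Some late minus early values changed sign, none of them past the threshold. With scan session as a block they were -0.14 for the Hoxa2 set of MG_U74Av2, -0.77 for the Hoxa2 set of MG_U74Cv2, -0.0387 for Hoxb8 and -0.28 for the Hoxc8 set of MG_U74Cv2. Without the 1999 arrays of 4d and 7d they were -0.0444 for the Hoxa2 set of MG_U74Av2, 0.41 for Hoxa11 and -0.0225 for the Hoxc9 set of MG_U74Av2. With 0h alone as the early phase they were 0.0124 for the Hoxa3 set of MG_U74Bv2, 0.13 for Hoxa5, 0.0415 for the Hoxa9 set of MG_U74Bv2 and 0.38 for Hoxc10. Leaving out each culture gave -0.21 to 0.12 for the Hoxa3 set of MG_U74Bv2, -0.49 to 0.0610 for Hoxa4, -0.0942 to 0.0589 for Hoxa5, -0.26 to 0.0326 for Hoxb2, -0.0868 to 0.23 for the Hoxa2 set of MG_U74Av2, -0.35 to 0.0949 for the Hoxa9 set of MG_U74Bv2, -0.0646 to 0.17 for Hoxc4 and -0.12 to 0.0329 for Hoxc10. The causes were not tested.

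Each time point had 3 arrays per chip, detection calls were not used, and a gene with dim sets only is not shown to be off.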
